A study of Mus musculus with 6 samples.

Results

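Intermediate filament and lamin genes were examined in mouse embryonic stem cells shortly after loss of Dicer, across 10 genes chosen by name from the 18193 named genes on the array. They are Vim, Des and Nes, which encode vimentin, desmin and nestin, the keratin genes Krt7, Krt8, Krt18 and Krt19, and the lamin genes Lmna, Lmnb1 and Lmnb2. Together they have 23 probe sets with a single gene symbol. All cells carried floxed Dicer alleles (Dicerflox/flox) and were grown on gelatin in serum with LIF. One group received GFP alone (Dcr WT, 3 arrays) and the other GFP with Cre recombinase, which excises the floxed segment (Dcr KO, 3 arrays), with RNA taken on day 5 after transfection. The methods describe biological triplicates of a polyclonal population, so cells that escaped deletion may be present in Dcr KO. No group had Cre without the deletion, so the effect of Cre and that of the deletion cannot be told apart. In RNA from a whole population, fewer cells that express a gene and less of its RNA in each cell cannot be told apart either.

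Intermediate filaments are built from coiled-coil proteins that assemble into flexible, rope-like polymers. In the cytoplasm, keratins of the acidic type I, such as Krt18 and Krt19, pair with keratins of the basic type II, such as Krt7 and Krt8, and give epithelial cells mechanical strength. Vimentin and desmin are type III proteins, known from mesenchymal and muscle cells, and nestin is a large protein of neural and muscle progenitors that assembles with them. Lamins are the nuclear members of the family and form a meshwork under the inner nuclear membrane. B-type lamins are made in nearly all cells, whereas A-type lamins are known to increase with differentiation.

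Dicer cuts miRNA precursors into mature miRNAs. In mouse embryonic stem cells a single cluster supplies a dominant share of them, and 3 of its products are given here. They are shown because Vim, alone among the 10 genes, is on the study's list of predicted targets of this cluster. Capitals mark the seed, bases 2 to 8 from the 5′ end. The sequences are from RefSeq (GRCm38.p6, plus strand), at chr7:3218968-3218989, chr7:3220691-3220712 and chr7:3220815-3220837 in the order given.
mmu-miR-291a-3p: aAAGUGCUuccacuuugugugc
mmu-miR-294-3p: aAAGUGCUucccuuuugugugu
mmu-miR-295-3p: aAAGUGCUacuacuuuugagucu
All 3 share the seed AAGUGCU and differ in the bases after it. The study formed that list in part from genes that were up on these same arrays, so the direction of Vim below is not independent evidence of targeting. Tor1b, Zmpste24, Daam1 and Neurod1, named further below, are on that list too, and the same limit holds for their direction.

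Values are log2 expression levels, and a gene's value is the mean over its probe sets. A difference is Dcr KO minus Dcr WT, tested with limma over the 8782 genes whose mean level over the 6 arrays was at least 4, with Benjamini-Hochberg adjustment and a threshold of 0.05. The labels were first checked on Dicer1 itself. Its level was 7.78, 7.89 and 7.16 on the Dcr WT arrays and 6.33, 6.59 and 5.92 on the Dcr KO arrays. Every Dcr KO array was below every Dcr WT array, and the level fell by 1.33 (limma's adjusted p = 0.0134). When all probe sets were tested, its brighter probe set fell by 1.84 (limma's adjusted p = 0.0138). The dimmer fell by 0.82 and did not pass (limma's adjusted p = 0.0908). Where the Dicer1 probes lie relative to the excised segment was not examined. Pairs of arrays within a group correlated at 0.9922 to 0.9972 over all probe sets (Pearson), and pairs across groups at 0.9837 to 0.9936.

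Vim rose after Dicer loss, Krt19 fell, and the other tested members did not pass the test. Of the 10 genes, 9 reached the minimum level and Des did not. Vim was the single gene called higher, beside 6.91% of all tested genes, and Krt19 the single gene called lower, beside 6.42%. The median difference over the 9 genes was -0.07, against -0.02 over all genes tested. Groups did not overlap in 2 tested members with Dcr KO higher, Vim and Krt18 (17.7% of all genes tested), and in 2 with Dcr KO lower, Krt19 and Lmnb1 (21.2%).

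**Figure D1:**
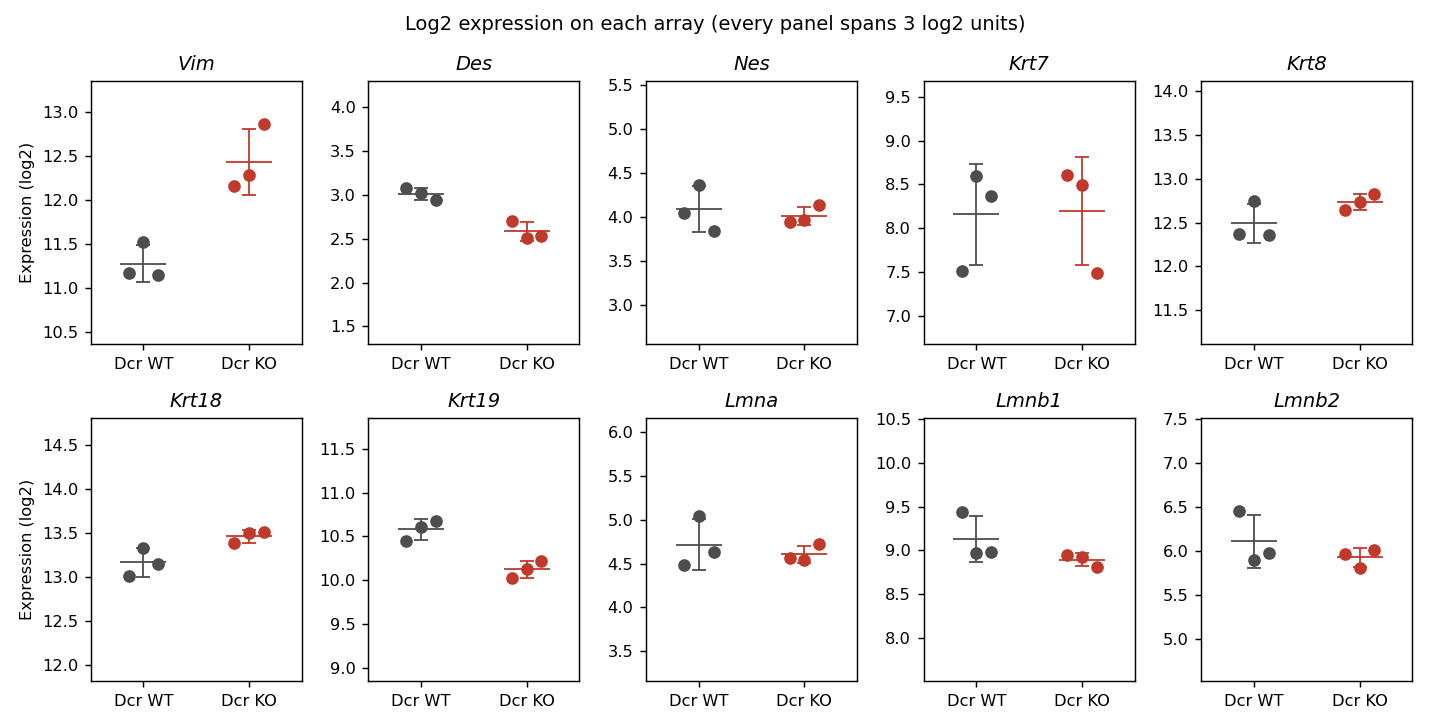
Log2 expression of the 10 genes on each array (each point is an array, with the group mean as a line and its SD over 3 arrays as bars), Dcr WT in grey and Dcr KO in red. The axes of all panels span the same range in log2 units but start at different levels, and the largest separation is that of Vim, from 11.14 to 11.52 in Dcr WT and from 12.16 to 12.86 in Dcr KO.

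Vim encodes vimentin, the main cytoplasmic filament protein of mesenchymal cells. Its level was 11.16, 11.52 and 11.14 on the Dcr WT arrays and 12.16, 12.29 and 12.86 on the Dcr KO arrays. All 3 Dcr KO arrays lay above all 3 Dcr WT arrays, with the highest value on Dcr KO replicate 3. The mean went from 11.28 ± 0.21 (SD, n = 3) to 12.44 ± 0.37 (SD, n = 3), a 2.23-fold rise (log2 difference 1.16 ± 0.20 SE, limma's adjusted p = 0.0127). The 95% interval of the fold ran from 1.62 to 3.07. By size this was the 94th largest rise among the 8782 genes tested. Without Dcr KO replicate 3 the difference was 0.95, and without Dcr WT replicate 3 it was 1.09 and did not pass (adjusted p = 0.0562).

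The 3 probe sets of Vim gave nearly the same rise. The probe set with a plain _at name read 11.05, 11.26 and 10.95 in Dcr WT and 11.88, 12.08 and 12.75 in Dcr KO. Differences over the 3 probe sets were 1.15 to 1.17, and each passed when all probe sets were tested (adjusted p = 0.0226 to 0.0350 from limma). These were the only member probe sets called, 3 of 16 tested being higher and none lower, beside 4.69% and 3.07% of the 18789 probe sets tested. At an unadjusted p under 0.05 in limma, 4 were higher and 3 lower. The share of all probe sets at that unadjusted cut was not counted, so whether these counts are unusual was not tested. One of the 3 Vim probe sets has a name ending in _x_at, which marks a probe set that can share sequence with other transcripts. The others gave the same rise without it.

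The genes whose levels followed Vim most closely over the 6 arrays were Sik3 (Pearson r = 0.9996), Filip1l (0.9995), Chrnb1 (0.9986), Daam1 (0.9975) and Ubr3 (0.9959). They were picked as the highest r among all tested genes outside the members. All points share the same 6 arrays in 2 groups, so these values are descriptive only. Filip1l had a log2 difference of 1.45, larger than that of Vim. Sik3 had 0.37 and Ubr3 0.33, and neither of these passed the test (adjusted p = 0.0546 and adjusted p = 0.0738 from limma).

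Des and Nes, the other members outside the keratins and lamins, had low mean levels over their probe sets. Des, which encodes the muscle filament protein desmin, lay under the minimum and was not tested, with levels of 3.08, 3.03 and 2.94 in Dcr WT and 2.71, 2.51 and 2.54 in Dcr KO. Every Dcr KO array was below every Dcr WT array. The difference of -0.43 comes mostly from the brighter of its 2 probe sets, which read 4.23, 4.36 and 4.32 in Dcr WT and 3.82, 3.33 and 3.51 in Dcr KO. The dimmer one stayed between 1.55 and 1.92 on all arrays. With no minimum level Des passed (adjusted p = 0.0386 from limma), at a level where the size of a change is least certain.

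Nes encodes nestin, widely used as a marker of neural progenitors. It averaged 4.09 ± 0.26 (SD, n = 3) without the deletion and 4.01 ± 0.10 (SD, n = 3) with it, and the groups overlapped (log2 difference -0.07, 95% interval -0.41 to 0.27). Only the brightest of its 3 probe sets was above the minimum. It read 6.73, 7.38 and 6.03 in Dcr WT and 6.22, 6.22 and 6.38 in Dcr KO. The 3 Dcr KO values lay close together within the spread of the Dcr WT values, and the difference of -0.44 did not pass (adjusted p = 0.398 from limma).

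Among the keratins, Krt19 was the only one that passed the test. Krt8, the type II keratin of simple epithelia, read 12.37, 12.75 and 12.36 in Dcr WT and 12.64, 12.74 and 12.83 in Dcr KO. The value of Dcr WT replicate 2 lay inside the Dcr KO range, and the difference of 0.24 did not pass (95% interval -0.06 to 0.55, adjusted p = 0.246 from limma). Its 3 probe sets gave 0.19 to 0.31, and 2 of them are of the _x_at kind. Krt18, its usual type I partner, read 13.01, 13.33 and 13.15 in Dcr WT and 13.38, 13.50 and 13.51 in Dcr KO. Here the groups did not overlap, though Dcr WT replicate 2 came close to the lowest Dcr KO array, and the difference of 0.30 did not pass (adjusted p = 0.116 from limma). With a variance trend and robust estimation Krt18 passed (adjusted p = 0.0463).

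Krt19, an unusually short type I keratin, went the other way. It read 10.45, 10.61 and 10.68 in Dcr WT and 10.03, 10.13 and 10.22 in Dcr KO, so that the highest Dcr KO array was below the lowest Dcr WT array. Its level went from 10.58 ± 0.12 (SD, n = 3) to 10.13 ± 0.10 (SD, n = 3) and fell by 0.45 in log2 units (SE 0.11, limma's adjusted p = 0.0334). That is 1.37-fold lower, against the 2.23-fold rise of Vim. Krt19 has a single probe set, which did not pass when all probe sets were tested (adjusted p = 0.0611). The call was also lost on leaving out any one of 4 arrays, Dcr WT replicates 2 and 3 and Dcr KO replicates 1 and 2 (highest adjusted p = 0.107 from limma), with differences of -0.52 to -0.40 when single arrays were left out.

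Krt7, a type II keratin of ducts and of trophoblast, varied more within the groups than between them. It read 7.51, 8.60 and 8.37 in Dcr WT and 8.61, 8.49 and 7.49 in Dcr KO, with 1 array of each group well below the others. The difference was 0.04, with a 95% interval of -0.79 to 0.87 that includes changes of either sign. It ranged from -0.29 to 0.39 when single arrays were left out.

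**Figure D2:**
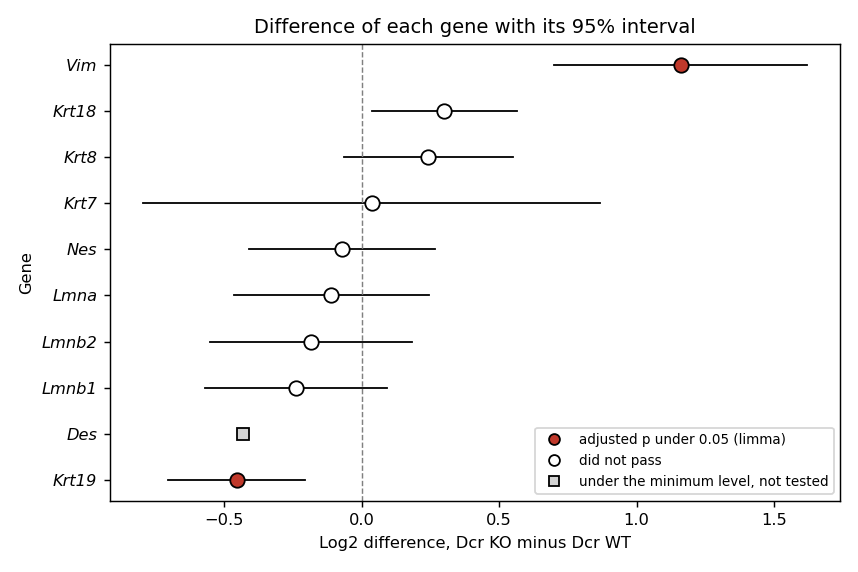
Log2 difference of each gene (points) with its 95% interval from limma (lines). Only the intervals of Vim, Krt18 and Krt19 leave out 0, and of these Vim and Krt19 (filled) passed after adjustment over all genes tested. Des (square) was under the minimum level and has no interval.

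Lamin RNAs did not pass the test in either direction, and the 95% intervals of all 3 genes included 0. Lmnb1, a B-type lamin, read 9.44, 8.98 and 8.99 in Dcr WT and 8.95, 8.93 and 8.81 in Dcr KO. The groups did not overlap, but Dcr WT replicate 1 stood above the other 5 arrays, and the difference of -0.24 (adjusted p = 0.289 from limma) was -0.09 without it. Its dimmer probe set read 8.90, 8.58 and 8.51 in Dcr WT and 8.37, 8.38 and 8.27 in Dcr KO, without overlap also among the other 5 arrays, and its difference of -0.32 did not pass (adjusted p = 0.177 from limma). The brighter one overlapped, with a difference of -0.15. Lmnb2, the second B-type lamin gene, read 6.46, 5.90 and 5.98 in Dcr WT and 5.97, 5.81 and 6.01 in Dcr KO. Dcr WT replicate 1 again had the highest value, and the difference of -0.18 (adjusted p = 0.457 from limma) was -0.01 without it. Its 2 probe sets differed here. The brighter read 7.54, 7.92 and 7.60 in Dcr WT and 7.47, 7.49 and 7.21 in Dcr KO, without overlap, and its difference of -0.30 did not pass (adjusted p = 0.243 from limma). The dimmer carried the high value of Dcr WT replicate 1, at 5.37 against 3.87 and 4.36 for the other Dcr WT arrays.

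Lmna encodes the A-type lamins A and C. Averaged over its 5 probe sets it read 4.48, 5.04 and 4.63 in Dcr WT and 4.56, 4.54 and 4.72 in Dcr KO, with a difference of -0.11 (95% interval -0.46 to 0.24). Of the probe sets, 3 lay under the minimum, with differences of -0.04 to 0.01, and they pull the mean level down. The brightest read 8.20, 8.58 and 8.39 in Dcr WT and 7.84, 7.91 and 8.26 in Dcr KO. Dcr KO replicate 3 lay inside the Dcr WT range there, and the difference of -0.39 did not pass (adjusted p = 0.176 from limma).

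**Figure D3:**
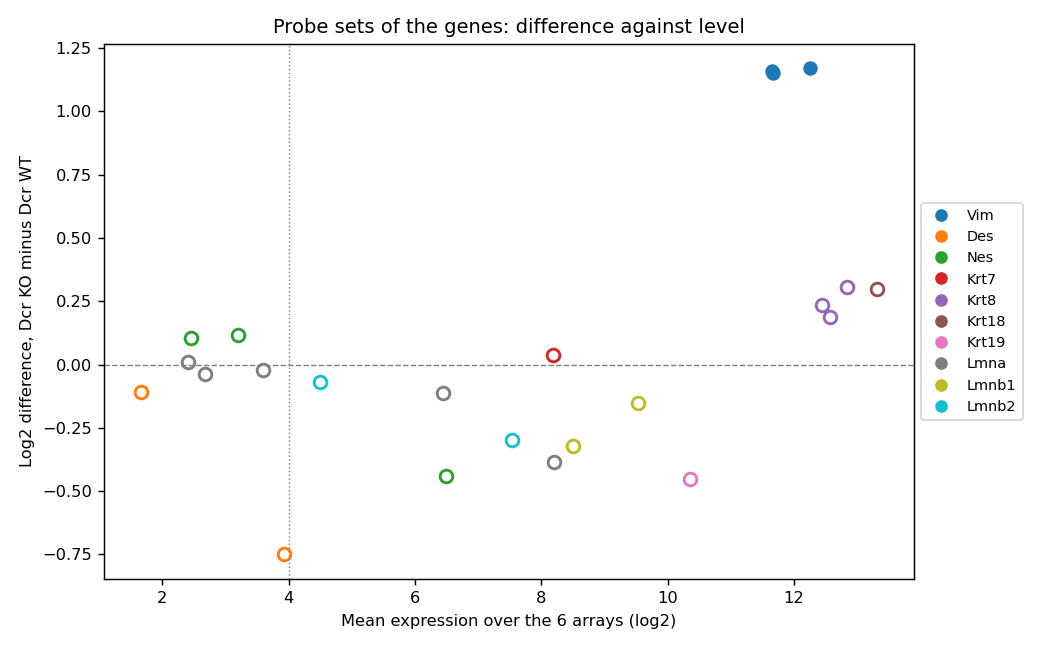
Log2 difference of each of the 23 member probe sets (vertical) against its mean log2 level over the 6 arrays (horizontal). Filled points passed over all probe sets (adjusted p under 0.05 from limma), and the dotted line marks the minimum level of 4. The 3 Vim probe sets lie together at 1.15 to 1.17, while 7 probe sets lie left of the line.

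Pairs of members were then compared directly, by an exact permutation test of the difference between 2 genes on each array, over 4 pairs. With 3 arrays against 3 its two-sided p cannot fall below 0.1. Vim exceeded Krt8 in its change by 0.92 on the log2 scale, and this contrast did not overlap between the groups (exact permutation test, p = 0.1, adjusted p = 0.4). For Krt8 against Krt18 the changes differed by -0.06 (exact permutation test, p = 0.5), for Lmna against Lmnb1 by 0.13 (exact permutation test, p = 0.9) and for Lmna against Lmnb2 by 0.07 (exact permutation test, p = 0.8). The exact permutation p adjusted over the 4 pairs was 0.9 for each of these 3. Over 4 pairs this design could not have passed the threshold, and the Lmna value includes its 3 dim probe sets, so nothing follows about the ratio of A-type to B-type lamin RNA. Whether Krt18 and Krt19 changed by different amounts was not tested.

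Among 29 further intermediate filament genes, 22 were under the minimum, and of the 7 tested 2 passed as higher, none fell (1 was lower at an unadjusted p under 0.05 in limma) and 5 did not pass. The share of all tested genes at that unadjusted cut was not counted. Whether the unadjusted counts of this list and of those below are unusual was therefore not tested. Krt42, a type I keratin, read 5.39, 5.99 and 5.87 in Dcr WT and 7.07, 7.40 and 7.47 in Dcr KO. No Dcr WT array came near the Dcr KO arrays, and the rise was 2.96-fold (log2 difference 1.56 ± 0.18 SE, limma's adjusted p = 0.0037). Its 2 probe sets gave 1.98 and 1.15, the latter from a probe set of the _x_at kind. Krt20, a type I keratin of gut epithelium, read 3.80, 4.07 and 3.88 in Dcr WT and 5.06, 4.93 and 4.93 in Dcr KO (adjusted p = 0.0025 from limma). Its Dcr WT mean of 3.92 is under the minimum, so it entered the test only through its Dcr KO arrays, had to differ there, and is given without a fold. Krt42 passed with any single array left out. The neurofilament genes Nefl (0.58), Nefm (0.55) and Nefh (0.28) did not pass. The epidermal keratins Krt5 and Krt14 and the glial Gfap were under the minimum. Not tested, 2 of the 22 genes under the minimum were higher on every Dcr KO array, Krt17 (0.755) among them, and 0 were lower. No matching share was counted for all genes under the minimum.

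Of 15 measured genes that link filaments to each other or to junctions, 12 were tested, none rose (1 was higher at an unadjusted p under 0.05 in limma), 1 fell and 11 did not pass. Pkp3, which encodes the desmosomal plaque protein plakophilin 3, fell by 0.48 in log2 units (limma's adjusted p = 0.0467) and passed in 1 of 6 fits with an array left out. Its brighter probe set gave -0.89 and did not pass (adjusted p = 0.0706 from limma), and the other, under the minimum, gave -0.06. The cytolinker Plec (0.12) and the desmosomal genes Dsp (0.36) and Jup (0.01) did not pass. The median of the 12 was 0.18.

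Of 20 measured genes for proteins of the inner nuclear membrane and its partners, 16 were tested, 2 rose, none fell (1 was lower at an unadjusted p under 0.05 in limma) and 14 did not pass. Tor1b, an ATPase of the nuclear envelope lumen, read 7.20, 7.42 and 6.92 in Dcr WT and 7.88, 7.97 and 8.25 in Dcr KO. That is a 1.81-fold rise (adjusted p = 0.0163 from limma), seen on its 3 probe sets (0.75 to 0.98), and it did not pass on leaving out either Dcr WT replicate 3 or Dcr KO replicate 2 (highest adjusted p = 0.0515 from limma). Tor1aip1, whose product binds lamins and activates torsins, rose by 0.47 (adjusted p = 0.0377 from limma) and passed in 1 of 6 fits with an array left out. Its 2 probe sets disagreed, with differences of -0.14 and 1.07. The lamin B receptor Lbr (-0.12), emerin, encoded by Emd (-0.12), and Sun1 (0.09) did not pass. None of the 5 genes that process prelamins passed (1 did at an unadjusted p under 0.05 in limma), and Zmpste24, the protease that matures lamin A, came closest (0.38, adjusted p = 0.0626 from limma).

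**Figure D4:**
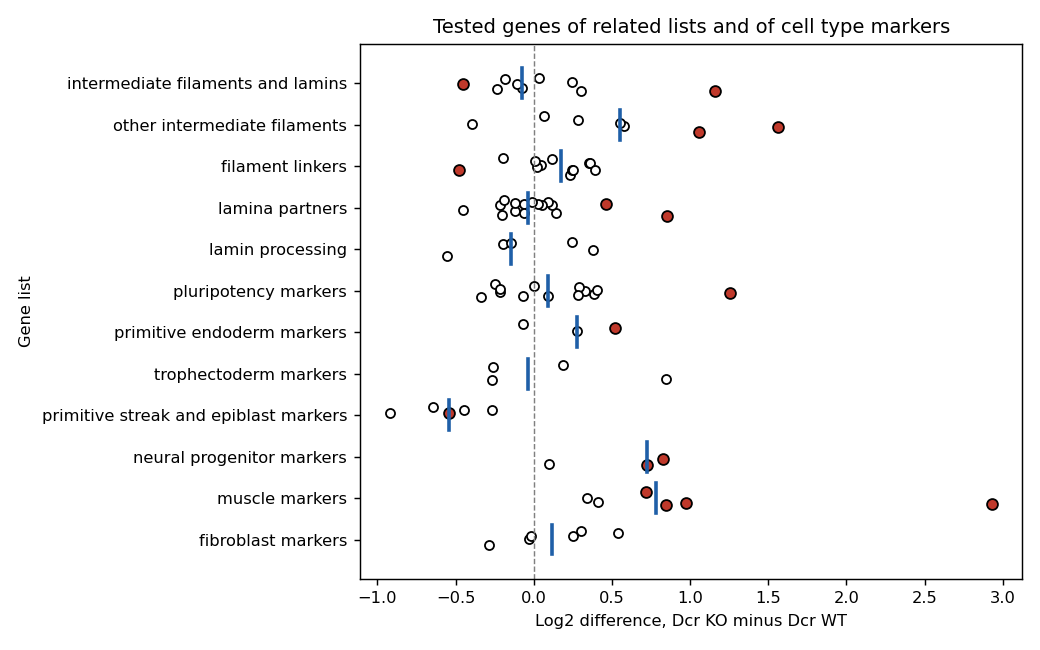
Log2 difference of every tested gene of the intermediate filament and lamin genes, of 4 related lists and of 7 lists of cell type markers (each point is a gene, filled where limma's adjusted p was under 0.05, and blue bars are medians of the tested genes). Height within a row has no meaning. The muscle list has 4 filled points, the rightmost being Actc1 at 2.93, and the fibroblast list has none.

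Because vimentin and desmin are markers of mesenchymal and muscle cells, nestin of neural progenitors and keratins of trophectoderm, markers of these cell types are given beside them. Of 14 pluripotency markers 13 reached the minimum, and of these Klf2 rose (2.38-fold) and 12 did not pass, with Pou5f1 at 0.38. Before adjustment 4 of the 13, Klf2 and Pou5f1 among them, were higher and 2 lower at p under 0.05 in limma. As above, the unadjusted counts of the marker lists have no share of all tested genes beside them. Sox2 had 0.33 and Tdgf1 had -0.34 (adjusted p = 0.0613 and adjusted p = 0.0685 from limma). Of 18 fibroblast markers 12 were under the minimum, including Twist1, Prrx1 and Dcn, and none of the 6 tested passed (2 were higher at an unadjusted p under 0.05), Fn1 coming closest (0.54, adjusted p = 0.0629 from limma). The 12 dim genes went both ways, 5 of them higher on every Dcr KO array (Col3a1 by 1.22, Col5a2 by 1.14 and Postn by 0.72 among them) and 2 lower (Col1a2 at -0.71 and Thy1 at -0.62), none tested. For genes that reached the minimum, such separation was seen in 17.7% with Dcr KO higher and in 21.2% with Dcr KO lower. It was not counted for all genes under the minimum. The untested counts here and in the next paragraph therefore lack a matching share, and whether they are unusual was not tested. The summed linear signal of the list was 6373 to 6746 in Dcr WT and 7558 to 9624 in Dcr KO, of which Tagln and Fn1 made up 97.4% to 98.3%. The part of such cells in the rise of Vim was not tested.

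Of 16 muscle markers 4 of the 6 tested rose, Actc1 (2.93), Acta1 (0.97), Acta2 (0.72) and Tnnc1 (0.85), and their summed linear signal was 938 to 1095 in Dcr WT and 2194 to 2663 in Dcr KO, of which Acta1 and Actc1 made up 78.0% to 89.3%. Tnnc1 passed in 1 of 6 fits with an array left out and Acta2 in 4. The defining factors Myod1, Myog and Myf5 were under the minimum, and Des, the filament of muscle, had the untested difference of -0.43. Not tested, 1 of the 10 muscle markers under the minimum was higher on every Dcr KO array (Nkx2-5 at 0.56) and 1 was lower (Myf5 at -0.38). Of 13 neural markers 2 of the 3 tested rose, Tubb3 (0.73) and Neurod1 (0.83, in 1 of 6 fits with an array left out). Nes did not pass, and Pax6, Sox1 and Neurog2 were among the 10 markers under the minimum. Not tested, 3 of these 10 were higher on every Dcr KO array, Sox1 (0.89) and Pax6 (0.58) among them, and 1 was lower (Hes5 at -0.29). Of 12 trophectoderm markers 4 were tested and none passed (before adjustment, 1 higher and 1 lower had p under 0.05), with Gata3 at 0.84 (adjusted p = 0.0621 from limma). Cdx2, Elf5 and Hand1 were among the 8 under the minimum. Not tested, 2 of these 8 were higher on every Dcr KO array, Cdx2 (0.48) among them, and 0 were lower. Of 12 primitive endoderm markers 3 were tested and Lama1 rose (0.52, in 1 of 6 fits with an array left out). Gata4, Gata6 and Sox17 were among the 9 under the minimum. Not tested, 2 of these 9 were higher on every Dcr KO array, Gata6 (0.32) among them, and 1 was lower (Amn at -0.90). Of 11 measured primitive streak and epiblast markers 5 were tested and Pou3f1 fell (-0.54, in 1 of 6 fits), while before adjustment 3 lower and 0 higher had p under 0.05. Otx2 had -0.92 (adjusted p = 0.0604 from limma), and the untested Fgf5 (-1.19) and Fgf8 (-1.52) were lower on every Dcr KO array. The part of these changes in those of Vim and Krt19 was not tested.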

How the data were processed

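Biotin-labelled cRNA was hybridised to 6 arrays, and the deposited values are log2 expression of 45037 probe sets. GCRMA (2.20.0) and R (2.11.1) appear in the processing notes of the submitters. A legend of the study states joint normalization with arrays of long-term deletion lines, which were not analysed here, but not whether the deposited values come from that run. GCRMA's background model can shift dim probe sets. No array column was left unused (0 columns), and the number of arrays limits the precision.

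Symbols come from the platform annotation. Of the probe sets, 34945 carried 1 symbol and were used, 932 several and 9160 none. The RefSeq gene table (GRCm38.p6) changed 0 symbols.

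Probe sets of a gene were averaged on the log2 scale. The test was limma's moderated linear model (lmFit, eBayes; limma 3.58.1 under R 4.3.3) on genes with a mean over the 6 arrays of at least 4, adjusted by Benjamini-Hochberg over all of them. The fit was tested on simulated data. Figures were drawn with matplotlib 3.10.9.

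The members and lists were chosen with earlier results of these data known. Named genes were all members, Dicer1, up to 4 genes of each list by smallest adjusted p, and the 5 genes correlating best with the member of smallest adjusted p. Further list genes were named after their values were seen. The fits were repeated with 14 other choices (minimum level, summary of probe sets, scaling, variance estimation, replicate block, each array left out), and with 2 more chosen after seeing the data.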

Additional observations from a re-analysis of the deposited data

How the results depend on the processing

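Vim was higher in Dcr KO under each of the 16 alternatives and passed in 15, with differences of 0.95 to 1.30 when single arrays were left out. Krt19 was lower under each of the 16 and passed in 11. The count of members called higher was 0 to 1 with single arrays left out and 2 with a variance trend and robust estimation, which added Krt18. The count called lower was 0 to 1 with single arrays left out, 0 with the replicate block and 2 with no minimum level, which added Des. The count of all genes changed, 1171, was 357 to 783 with single arrays left out. The replicate numbers gave no sign of pairing the samples (correlations of same-numbered deviations of -0.22, -0.02 and 0.03, and not every array correlated best with its own number). With 3 arrays per group this check cannot exclude pairing. With the replicate block 597 genes were called, Vim passed (adjusted p = 0.0344 from limma) and Krt19 did not (adjusted p = 0.0624). With single arrays left out, the difference changed sign for Krt7 (-0.29, -0.17 and -0.11 without Dcr WT replicate 1, Dcr KO replicate 1 and Dcr KO replicate 2, and up to 0.39) and Lmna (-0.23 to 0.051, the latter without Dcr WT replicate 2) and Nes (-0.19 to 0.07, the latter without Dcr WT replicate 2 and untested there), none of which passed in any of these fits. Nes read -0.44 on its brightest probe set and 0.12 as a median of probe sets, a choice made after seeing the data. Des had no value over probe sets of at least 4 only, likewise chosen after seeing the data, since neither of its probe sets reached 4. Low signal limits Des, and dim probe sets enter the means of Nes and Lmna.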
